A study of Mus musculus with 3 samples.

Results

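The immediate early genes examined here are 10 genes of transcription regulators: the Fos proteins Fos and Fosb, the Jun proteins Jun, Junb and Jund, the zinc finger factors Egr1, Egr2 and Egr3, the nuclear protein gene Ier2, and Atf3, a stress-induced repressor of the ATF family. They were chosen by name, and all 10 were found among the 28074 gene symbols of the deposited table, each on a single row. RNA was sequenced from 3 acute myeloid leukemias, each from the spleen of a separate moribund mouse. Every mouse lacked miR-196b (miR-196b-/-) and carried floxed Dnmt3a alleles (Dnmt3a fl/fl), an internal tandem duplication on both Flt3 alleles (Flt3 ITD/ITD) and Mx1Cre, a recombinase driven by the interferon-responsive Mx1 promoter, which is active in blood cells and in other tissues. The sample titles give Dnmt3a as +/-, the genotype field as fl/fl, and no age is stated. Red cells were lysed and cells bearing the receptor c-Kit were enriched with magnetic beads. Control leukemias with miR-196b intact come from an earlier series of the submitters and are not analysed here. The values below therefore describe 3 mice of 1 genotype, and no effect of the deletion was tested.

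Immediate early genes are transcribed soon after a growth factor, cytokine or stress signal reaches a cell, without a need for new protein. Serum response factor with its ETS-domain partners, and CREB, are the factors best known for switching them on, and their messages are short-lived. Fos and Jun proteins pair through leucine zippers to form AP-1, in which Fos needs a Jun partner while Jun can also pair with itself. Egr proteins bind GC-rich sites through zinc fingers. In myeloid cells AP-1 and Egr factors are known for their part in monocyte and macrophage differentiation, and Flt3 signals through the RAS and ERK pathway, which feeds into the same genes.

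The deleted microRNA is shown first, with its seed (bases 2 to 8) in capitals, because the seed sets which messages it can pair with. Its mature 5p strand lies at chr6:52230129-52230150 on the minus strand of GRCm38.p6, and the sequence is that of RefSeq.

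mmu-miR-196b-5p: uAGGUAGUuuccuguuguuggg

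The match to this seed, ACTACCT, was searched in the 3′ UTR of the longest coding transcript of each gene in GENCODE M21. Of the immediate early genes, Ier2 held 1 match and the other 9 held none. The match began at base 699 of the 755 nt of the Ier2 3′ UTR. Among 12504 expressed genes with an annotated 3′ UTR, 6.75% held at least 1 match. The site is printed with its match in capitals.

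Ier2 3′ UTR site: aattagcaACTACCTggagtttt

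Promoter sequence is shown for 5 members. These are all that were at least 2-fold apart between mice 1 and 2 (values below) and matched to the RefSeq promoter table of GRCm38.p6. Each run is the 150 bases before an annotated start, with matches in capitals. The motifs searched are spelled out after the sequences. The Fos window is chr12:85473740-85473889 (plus strand), the Fosb window chr7:19310046-19310195 (minus), the Jun window chr4:95052223-95052372 (minus), the Atf3 window chr1:191183334-191183483 (minus) and the Egr2 window chr10:67537719-67537868 (plus). Egr2 has 5 annotated starts in the table, and a window with the most matches was taken. In GENCODE M21 no exon lies in the Fos, Jun or Egr2 window, and exons of Fosb and Atf3 reach a few bases into theirs.

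Fos: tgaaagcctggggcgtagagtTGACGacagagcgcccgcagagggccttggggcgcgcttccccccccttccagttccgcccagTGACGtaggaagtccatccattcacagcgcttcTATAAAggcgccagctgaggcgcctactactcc
Fosb: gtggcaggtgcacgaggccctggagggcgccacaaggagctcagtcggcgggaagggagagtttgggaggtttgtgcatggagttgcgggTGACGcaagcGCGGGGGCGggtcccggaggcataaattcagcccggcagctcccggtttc
Jun: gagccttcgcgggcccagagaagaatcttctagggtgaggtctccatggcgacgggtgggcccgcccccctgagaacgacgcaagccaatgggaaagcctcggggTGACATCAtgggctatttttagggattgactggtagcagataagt
Atf3: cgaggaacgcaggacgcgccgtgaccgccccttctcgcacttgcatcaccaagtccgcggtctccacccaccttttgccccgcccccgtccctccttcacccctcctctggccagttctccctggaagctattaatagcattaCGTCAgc
Egr2: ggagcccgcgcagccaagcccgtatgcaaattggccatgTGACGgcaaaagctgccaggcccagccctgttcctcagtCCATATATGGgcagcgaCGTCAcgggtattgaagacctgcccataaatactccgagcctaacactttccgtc

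The core of the cAMP response element, TGACG on either strand, stood at 129 and 66 bases before the start of Fos, at 60 in Fosb, at 7 in Atf3, and at 111 and 55 in the Egr2 window shown. Of the 7 members matched, Junb also held it, at 106 bases before its start, and Jun and Jund did not. The Jund window, chr8:70697589-70697738 (plus strand), does not adjoin the GENCODE M21 start of Jund at 70698949. Its lack of matches in any of these searches therefore does not describe the bases before that start. It was in 3 of the 5 Egr2 windows. TGACG occurs in 13.3% of 32851 promoter windows of the same length, each annotated start giving 1 window. The CArG box, which serum response factor binds, was searched by its consensus and stood in the Egr2 window shown at 72 bases before the start and in 4 of the 5 Egr2 windows. It was in no window of the other 6 members, whose sequence farther upstream was not searched, and in 0.916% of all windows. Because the Egr2 window shown was picked for its matches, and several of its windows overlap, its matches are not to be read against these shares. The AP-1-like letters TGACATCA stood 45 bases before the start of Jun (2.32% of all windows), the Egr letters GCGNGGGCG stood 50 bases before that of Fosb (3.81%), and TATAAA stood 33 bases before that of Fos (7.57%). Searched on both strands, the complete element TGACGTCA (1.36% of all windows) and the AP-1 letters TGAGTCA (2.84%) were in none of the members' windows. TGACG is part of the complete element, so these searches overlap, and a match describes letters in this window only.

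The labelled cell type was checked against its markers. Kit, the enrichment marker, stood at 139, 149 and 133 TPM in mice 1, 2 and 3. TPM is transcript abundance per length, scaled to a fixed total per library. Of 11 progenitor and leukemia genes analysed, all had a mean of at least 1 TPM, the level called expressed here. Mpo was the highest, at 1081, 864 and 1632 TPM, while Ptprc, the pan-leukocyte gene, was low at 2.25, 3.09 and 2.40 TPM. The labels plan 30000000 reads per library, but TPM carries no depth, so the spread between mice is the only error given. Mouse numbers follow the record order and only name a mouse. The Y-linked genes Eif2s3y (2.16, 1.25 and 91.7 TPM) and Uty (5.82, 9.68 and 42.5 TPM) set mouse 3 apart from mice 1 and 2. The labels give no sex, and its part in the differences from mouse 3 was not tested.

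All 10 immediate early genes were expressed, and 8 of them stood in the top 10% of the 15181 expressed genes by mean TPM. Fos was the most abundant, followed by Jun. By mean TPM the order was Fos, Jun, Junb, Ier2, Fosb, Jund, Atf3, Egr1, Egr3 and Egr2. Fos exceeded Jun in every mouse, and its lowest value (563 TPM) was above the highest value of Jun (519 TPM). The 6 genes from Junb to Egr1 overlapped their neighbours in this order. Egr3 and Egr2 overlapped each other, at 3.15 to 18.7 TPM, and lay below the other 8 genes in every mouse.

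**Figure D1:**
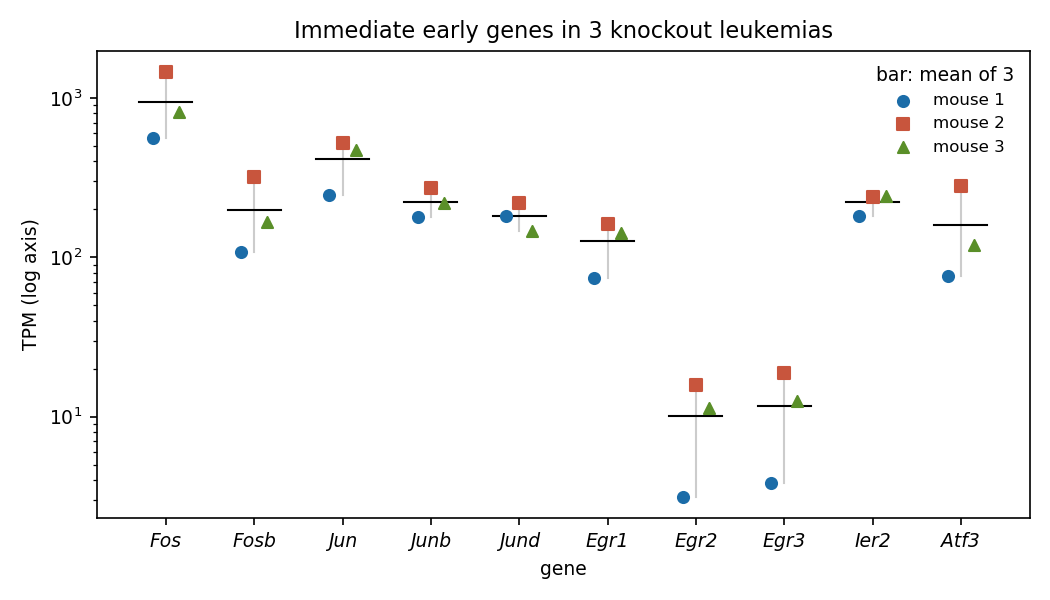
TPM (log axis) of the 10 immediate early genes in the 3 miR-196b-/- leukemias, with 1 symbol per mouse and a bar at the mean. Mouse 2 (square) is highest for 9 genes, against 31.1% of all expressed genes. Mouse 1 (circle) is lowest for 9 genes, and the share of all expressed genes lowest there was not counted.

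The Fos proteins bring the transactivation domain that AP-1 gains over Jun dimers. Fos was at 563, 1455 and 821 TPM in mice 1, 2 and 3, which averaged 946 ± 459 (SD, n = 3). Fosb, its close relative, was at 107.5, 319 and 166 TPM, a mean of 198 ± 109 (SD, n = 3). Both were highest in mouse 2 and lowest in mouse 1, 2.58-fold apart for Fos and 2.97-fold apart for Fosb. Both genes kept nearly the same proportion in the 3 leukemias, with a Fosb to Fos ratio of 0.191, 0.219 and 0.203. The full-length and truncated proteins encoded by Fosb cannot be separated in a value per gene.

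The other Fos genes were low. Fosl1 was at 4.47, 2.82 and 2.89 TPM and Fosl2, known for later and steadier expression, at 6.90, 8.55 and 10.3 TPM. Neither was highest in mouse 2. Fos made up 82.0% ± 0.543 (SD, n = 3) of the summed TPM of the 4 Fos genes and Fosb 16.8% ± 1.06.

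Jun, the main transactivating partner of Fos, was at 247, 519 and 472 TPM, a mean of 413 ± 146 (SD, n = 3). Mice 2 and 3 lay close together and mouse 1 lay 2.11-fold below mouse 2. Junb, which often opposes Jun, was at 179, 273 and 219 TPM, with 1.53-fold between the lowest and the highest mouse. Jund, the Jun gene that is least dependent on stimulation, was at 182, 218 and 145 TPM. It differed from the others in that mouse 3, not mouse 1, was lowest.

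The makeup of the Jun genes differed between mice more than that of the Fos genes. Jun took 40.6%, 51.4% and 56.4% of their summed TPM in mice 1, 2 and 3, while Jund took 30.0%, 21.6% and 17.4%. Junb took 27.5% ± 1.68 (SD, n = 3). The ratio of summed Fos genes to summed Jun genes was 1.12, 1.77 and 1.20, so the Fos genes were in greater excess in mouse 2 than in the other mice. In GENCODE M21 the exons of Jund overlap Gm11175 on the opposite strand, and those of Junb overlap Prdx2. Gm11175 stood at 86.1, 128 and 55.4 TPM, in the order of mice that Jund has, and Prdx2 at 185, 162 and 210 TPM, in another order than Junb. Junos overlaps Jun on the opposite strand and has no value here. Whether strand was used in the quantification is not given in the sources used here, so the reads of these overlapping pairs, Jun and Junos included, cannot be told apart.

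**Figure D2:**
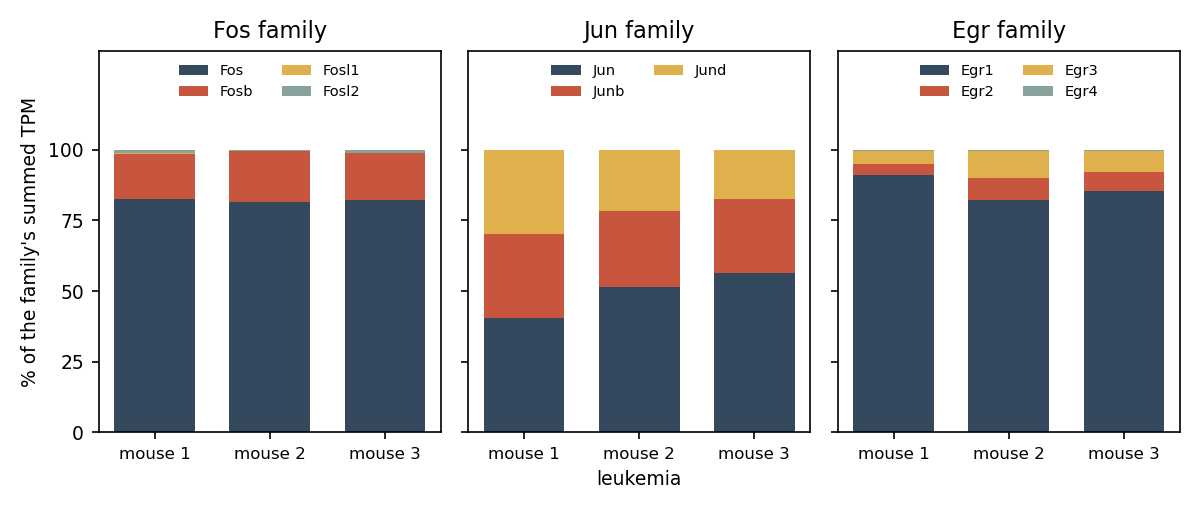
Share of the summed TPM (%) that each gene takes within the Fos, Jun and Egr genes, with 1 bar per mouse. Fos holds between 81.5% and 82.6% of the Fos genes, whereas Jun holds between 40.6% and 56.4% of the Jun genes.

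Egr1 was the most abundant Egr gene, at 74.5, 161 and 142 TPM, a mean of 126 ± 45.5 (SD, n = 3). Mouse 1 lay 2.16-fold below mouse 2. Egr2, which is needed for myelination and also acts in macrophages and lymphocytes, was at 3.15, 15.9 and 11.3 TPM. Egr3, its partner in restraining T cell responses, was at 3.82, 18.7 and 12.5 TPM. Mouse 2 exceeded mouse 1 by 5.05-fold for Egr2 and by 4.91-fold for Egr3, the widest gaps among the 10 genes. Egr1 took 91.0%, 82.0% and 85.4% of the summed Egr TPM, and its share was highest in the mouse with the lowest Egr2 and Egr3. Egr4 had a mean under 1 TPM. Of the corepressors that bind Egr proteins, Nab1 was at 59.7, 53.8 and 51.2 TPM and Nab2, itself an Egr target, at 15.3, 20.7 and 9.83 TPM.

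Atf3 was at 75.9, 280 and 119 TPM, a mean of 158 ± 108 (SD, n = 3). It was 3.69-fold higher in mouse 2 than in mouse 1 and, as the only member with such a gap, 2.36-fold higher in mouse 2 than in mouse 3. Ier2 was at 182, 239 and 244 TPM, a mean of 222 ± 34.5 (SD, n = 3), and was the only member that was highest in mouse 3. Its values in mice 2 and 3 differed by 1.02-fold.

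Read together, 9 of the 10 genes were highest in mouse 2, 1 in mouse 3 and 0 in mouse 1. Over all expressed genes 31.1% were highest in mouse 2, 20.3% in mouse 3 and 48.6% in mouse 1. The full order of mouse 2 over mouse 3 over mouse 1 held for 8 of the 10 genes, against 14.4% of all expressed genes. After the columns were scaled to a common upper quartile the counts were again 9 and 8, against 33.9% and 19.9% of all expressed genes. Members of the group are induced together and are not independent of each other, so these counts describe 3 libraries and are not a test. In bulk RNA, fewer cells that express these genes and less RNA per cell cannot be told apart.

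A gap of at least 2-fold in TPM between mouse 2 and mouse 1 was found for 7 of the 10 genes (Fos, Fosb, Jun, Egr1, Egr2, Egr3 and Atf3), all higher in mouse 2, against 4.22% of expressed genes higher in mouse 2. Between mouse 3 and mouse 1 it was found for Egr2 and Egr3, both higher in mouse 3, against 4.08% of expressed genes. When the columns were scaled to a common upper quartile the count was 4, against 5.3% of expressed genes. Mouse 3 exceeded mouse 2 by 2-fold for 0 members and 2.85% of expressed genes, and mouse 2 exceeded mouse 3 for 1 member and 2.69% of expressed genes. Each of these compares 1 library with another, with no replicate.

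On the log2(TPM + 1) scale the median difference over the 10 genes was 1.23 for mouse 2 minus mouse 1, 0.63 for mouse 3 minus mouse 1 and -0.50 for mouse 3 minus mouse 2. Over all expressed genes the same medians were -0.08, -0.13 and -0.05. Scaling to a common upper quartile moved mice 1, 2 and 3 by -0.08, 0.02 and 0.07 log2 units. The SD between mice ranged from 0.24 (Ier2) to 1.06 (Egr2) log2 units with a median of 0.64, against a median of 0.21 over all expressed genes. Without mouse 1 the members' median SD was 0.36, against 0.14 over all expressed genes.

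**Figure D3:**
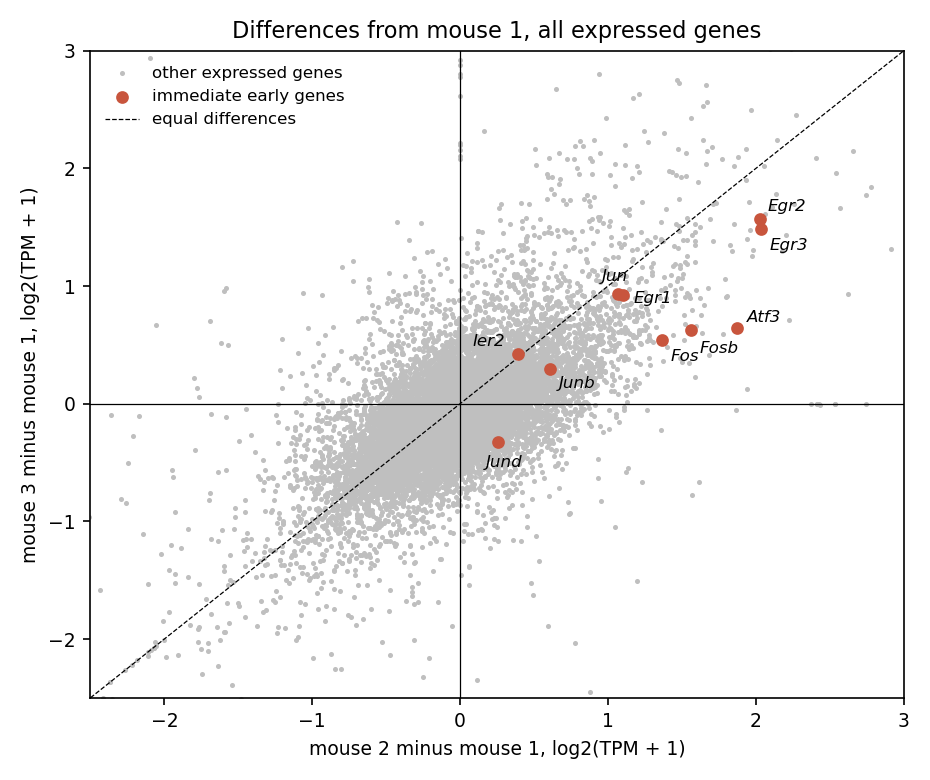
Difference from mouse 1 in log2(TPM + 1), for mouse 2 (x axis) and mouse 3 (y axis), with each expressed gene in grey and the 10 immediate early genes labelled. All 10 lie to the right of 0 on the x axis, Ier2 lies just above the dashed line of equal differences, and Jund is the member below 0 on the y axis. 78 genes lie outside the axes.

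The mouse 2 excess was also ranked across 9515 genes with a mean of at least 10 TPM, by the smaller of the differences from the other mice on the log2(TPM + 1) scale. In this ranking 16 genes were at least 2-fold above both other mice in TPM. Atf3 ranked 3, Fosb 18 and Fos 33, while Jun ranked 1579 and Ier2 2970. The genes around Atf3 were Igkj1 (4.37, 52.6 and 17.3 TPM), an immunoglobulin joining segment, 5730522E02Rik, Gm17387, Gm12970, Gm14087, Kcna7, Dusp10, Gm15613 and Gm11011. Dusp10, a phosphatase of stress-activated MAP kinases, was at 23.5, 51.9 and 22.7 TPM. Kcna7, a potassium channel gene, was at 11.4, 26.1 and 11.5 TPM. Atf3 was the only member among the first 10 genes, and Atf3, Fosb and Fos were the only members among the first 100.

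Other immediate early genes were followed as a list of 34, of which 33 were expressed. Of these, 22 were highest in mouse 2, 6 in mouse 1 and 5 in mouse 3, and after scaling to a common upper quartile the counts were the same. Dusp1, a phosphatase that switches off MAP kinases, was the most abundant at 478, 790 and 437 TPM. Nr4a3, an orphan nuclear receptor, had the widest spread, at 8.94, 38.1 and 22.8 TPM. Mouse 2 exceeded mouse 1 by at least 2-fold for 7 of the 33, named here after their values were seen: Nr4a1, Nr4a2, Nr4a3, Klf2, Zfp36l1, Plk2 and Arc. The median difference of the list was 0.49 for mouse 2 minus mouse 1 and 0.04 for mouse 3 minus mouse 1. Between mice 1 and 3 the list went both ways. In mouse 3, 3 genes were at least 2-fold higher than in mouse 1 (Nr4a3, Arc and Ptgs2) and 4 at least 2-fold lower (Dusp6, Per1, Ctgf and Errfi1), again named after their values were seen. Of the 15181 expressed genes, 620 were at least 2-fold higher and 700 at least 2-fold lower. Arc, Ptgs2 and Ctgf were low, with means of 1.13, 2.17 and 1.20 TPM, where a fold in TPM is unsteady. Over the 10 members the median of mouse 3 minus mouse 1 was 0.63, with only Jund lower in mouse 3. The same median over all expressed genes was -0.13.

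Lists of genes that act with or upstream of AP-1 had smaller median SDs between mice than the members (0.64 log2 units). These were 0.18 for bZIP relatives, 0.17 for factors of the response elements, 0.10 for kinases and 0.24 for AP-1 degradation. Single genes varied more, up to 0.62 for Trib2. The bZIP relatives that can pair with Fos or Jun (12 of 13 expressed) had medians of 0.08 and -0.11 for mouse 2 and mouse 3 minus mouse 1, and none was 2-fold apart between any pair of mice. Atf7 was their most abundant gene, at 95.3, 74.2 and 81.1 TPM, and Maff their most variable, at 13.8, 22.0 and 12.7 TPM. The factors that bind the serum response and cAMP response elements (10 of 10 expressed) had medians of 0.06 and -0.13. Elk4, an ETS-domain partner of serum response factor, was at 186, 137 and 115 TPM, and Crem, a CREB relative with inducible repressor forms, at 15.7, 26.3 and 22.2 TPM. The kinases of the ERK, JNK and p38 pathways (13 of 13 expressed) had medians of -0.02 and -0.08, with Mapk14 highest at 183, 199 and 173 TPM. These median differences are no larger than the shift that scaling makes, so their signs carry no direction. All 5 ubiquitin ligases and adaptors analysed from a list drawn up for AP-1 degradation were expressed, Trib2 with a mean of only 1.37 TPM. Itch was the most abundant at 77.2, 107 and 85.1 TPM, and Trib2 the most variable at 0.851, 0.627 and 2.63 TPM.

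**Figure D4:**
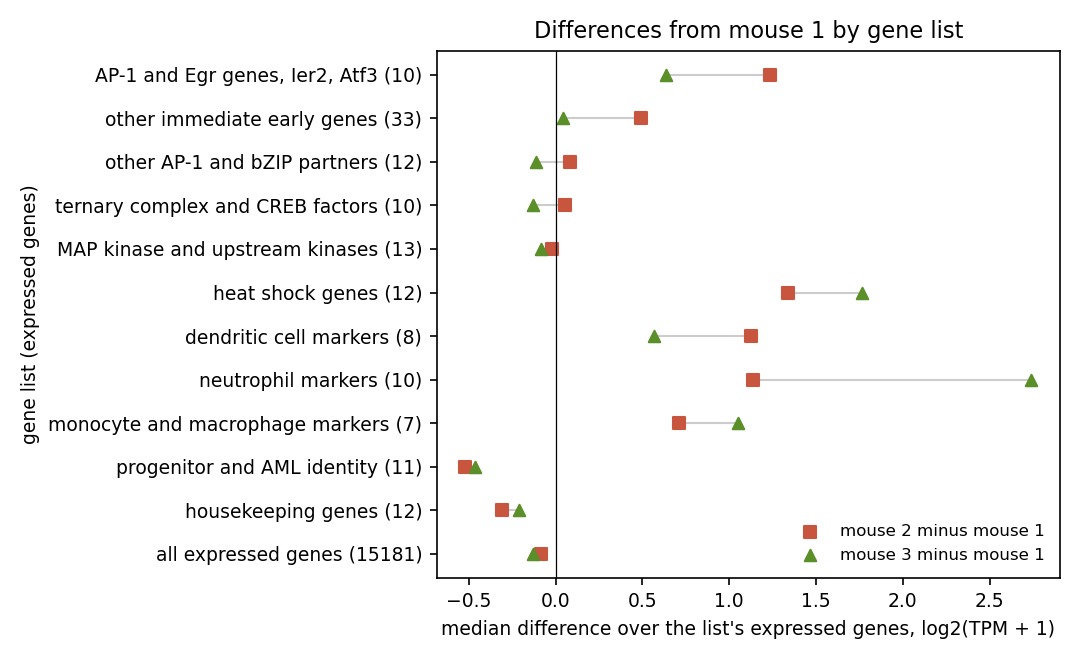
Median difference from mouse 1 in log2(TPM + 1) over each gene list's expressed genes (number in brackets), with squares for mouse 2 and triangles for mouse 3. The 10 immediate early genes stand at 1.23 and 0.63, heat shock genes at 1.34 and 1.77, and all expressed genes at -0.08 and -0.13.

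Several other lists were also lowest in mouse 1. Heat shock genes, which stress induces, had medians of 6.63, 8.94 and 9.27 log2(TPM + 1) in mice 1, 2 and 3, and 11 of 12 were highest in mouse 3. Hspa8 was their most abundant gene, at 1930, 2937 and 3049 TPM, and Hspa1b their most variable, at 29.1, 1011 and 1167 TPM. Mouse 1 was thus lowest for both groups, while mouse 2 was highest for the immediate early genes and mouse 3 for the heat shock genes. The part of a heat shock or handling response in the members' values was not tested.

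Markers of other cells differed between mice too. The summed TPM of 8 dendritic cell markers was 531, 1003 and 707 in mice 1, 2 and 3, the order of mice most members have, and 5 of the 8 were highest in mouse 2. Clec9a, a receptor of cross-presenting dendritic cells, was at 184, 415 and 273 TPM. Flt3, which the leukemia genes also include, is 1 of these 8 markers. Summed neutrophil markers stood at 2500, 6495 and 21525 TPM, with 9 of 10 highest in mouse 3, and summed monocyte and macrophage markers at 472, 554 and 844 TPM, with 6 of 7 expressed genes highest in mouse 3. Both sums were lowest in mouse 1. The share of all expressed genes that were lowest in mouse 1 was not counted, so the members' lowest mouse is not set against these sums.

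None of the remaining marker sums had the order of most members. Summed B cell markers stood at 81.0, 138 and 273 TPM, again lowest in mouse 1, with 5 of 6 expressed genes highest in mouse 3. T and NK cell markers summed to 173, 124 and 171 TPM, but this sum was mostly Nkg7, a cytotoxic granule gene, at 153, 101 and 143 TPM. Over the 8 expressed T and NK markers the median difference from mouse 1 was 0.30 for mouse 2 and 0.23 for mouse 3. Their median level was 2.20, 2.06 and 2.26 log2(TPM + 1) in mice 1, 2 and 3, lowest in mouse 2 as the sum was. The sums were 52.3, 34.8 and 88.1 TPM for erythroid cells, 71.8, 47.1 and 90.7 TPM for megakaryocytes, and 96.7, 38.6 and 55.0 TPM for mast cells and basophils. Among the 11 progenitor and leukemia genes, 6 were highest in mouse 1, and the median difference from mouse 1 was -0.52 for mouse 2 and -0.46 for mouse 3, the opposite sign to the immediate early genes. Of 75 marker genes analysed only Fcer1a was listed at 0, in mouse 2. The part of admixed cells in the members' values was not tested. Housekeeping genes had a median of -0.31 for mouse 2 and -0.21 for mouse 3 minus mouse 1, also of the opposite sign.

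Features of the transcripts that played no part in choosing the genes were also compared. In the longest coding transcript, 4 of the 10 genes (Jun, Junb, Jund and Ier2) have a single exon, against 2.64% of 12504 expressed genes with an annotated 3′ UTR. The median number of exons was 2 for the members and 9 for expressed genes, and the median transcript length 2537 nt and 3055 nt. The 3′ UTRs had similar median lengths, 1193 nt and 1110 nt. AU-rich elements, which proteins of the Zfp36 family bind to speed decay, were counted as the letters ATTTA. At least 1 was present in 9 of 10 members and 68.5% of expressed genes, and at least 3 in 5 of 10 members and 37.4% of expressed genes. Per kb of 3′ UTR the median was 2.51 for the members and 1.28 for expressed genes. Fos had the highest density, at 4.91 per kb, and Ier2 had none. Fos was also the 1 member with the longer element TTATTTATT, which 7.81% of expressed genes hold. The site is shown, with the element in capitals, because no other member holds it.

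Fos 3′ UTR site: ttttcaatTTATTTATTaagatgga

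Set against the spread between mice, these features did not order the members in 1 way. The single-exon genes Ier2, Jund and Junb varied least, with SDs of 0.24, 0.29 and 0.30 log2 units. After scaling to a common upper quartile these were 0.31, 0.27 and 0.35, and Jund came before Ier2. Jun also has a single exon, with 4 ATTTA elements, and varied more, at 0.58. The 2 most variable genes, Egr2 and Egr3, hold 3 and 7 elements, while Fosb, at 0.79, holds 1. Junb, Jund and Ier2 lie on chromosome 8, Jund at chr8:70698949-70700616, Ier2 at chr8:84661331-84662852 and Junb at chr8:84974484-84978718. The 3 least variable members thus share a chromosome, which was seen after their values were known and was not tested.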

How the data were processed

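The authors deposited 1 table with a value per gene symbol, in TPM. Its name says log2 FPKM, but the values are linear and the 3 columns sum to 929731, 927169 and 928490. Kallisto and mm10 are named in the submitters' processing notes, with no version or role. The labels give stranded paired-end reads of 150 nt from RNA with an integrity number above 8, and name both ribosomal depletion and an mRNA kit. Rows with no symbol (795) or a date in its place (27) were left out. They held 0.785%, 0.734% and 0.787% of the column sums. Values of 90 repeated symbols were summed, and 3 columns of control leukemias were not used. The plan allowed for FPKM or TPM.

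TPM were taken as log2(TPM + 1), and genes with a mean of at least 1 TPM were called expressed. With 1 group there was no test and no p-value. The members, gene lists and named genes (all members, each list's most abundant and most variable gene, and the first 10 by excess in the mouse where most members were highest) were chosen with earlier results of these data known. The motif TGACATCA, the core TGACG and the AU-rich elements were added after the values were seen. Counting was checked on simulated data. Symbols were matched to GENCODE M21, which is of the mm10 build (GRCm38): 97.6% of expressed genes matched, 613 of them with a coding transcript through an older RefSeq symbol, and 83.0% had a coding transcript. RefSeq promoters (GRCm38.p6) matched 7 of the 10 members. Windows on chromosome 18, where Egr1 lies, were left out of this matching. Alternatives covered the pseudocount, the filter, 2 scalings, each mouse left out, and repeated symbols. Python 3.11.15, numpy 2.4.6, pandas 2.3.3 and matplotlib 3.10.9 were used.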

Additional observations from a re-analysis of the deposited data

How the results depend on the processing

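No paired analysis was possible because all mice form a single group. The number of members highest in mouse 2 was 9 and ranged from 9 to 10 across the settings that left out another mouse, while the share over all expressed genes went from 31.1% to 57.1% without mouse 1 and 40.9% without mouse 3. The number highest in mouse 3 ranged from 1 to 9 and that in mouse 1 from 0 to 1, both moving when mouse 2 was left out, which hands its genes to the mice that remain. The members' median SD of 0.640 ranged from 0.357 (without mouse 1) to 0.873 (without mouse 3). The SD of a single member was over 1.5 times smaller without mouse 1 for Jun, Egr1, Egr2, Egr3 and Ier2, without mouse 2 for Fos, Fosb and Atf3, and without mouse 3 for Jund. For Jun it was 0.58 with all mice and 0.096 without mouse 1. The number of members at least 2-fold higher in mouse 3 than in mouse 1 was 2, and 4 under both the common upper quartile and the median ratio scaling. Median differences between mice kept their sign, and that of mouse 2 minus mouse 1 went from 1.23 to 1.33 under the common upper quartile. Leaving out the mouse outside a pair cannot change that pair's difference. The median level and the family shares moved by less than their SD between mice when a mouse was left out. Family shares are taken within a column, so scaling and the pseudocount could not change them. All members passed each filter and lie on single rows, so those settings could not move their values. Without a known depth, the counting error of Egr2 and Egr3, the members with the lowest values, cannot be given.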
